A study of Mus musculus with 6 samples.

Results

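The 691 probes described here carry an ID that starts with mouselincRNA, and they make up 1.16% of the 59709 different probes that each array holds beside its control and negative spots. They were taken by that ID from the 6 scanner files, among spots that are not controls, and each has 1 spot per array. The ID goes on with a number between 2 and 1673 and a plus or minus sign, which is read here as the strand. All 691 IDs end in _P1, which is left out below. The probes bear 351 different numbers. For 340 of these both signs are present, 3 have the plus probe and 8 the minus probe without a partner. The files give no gene name or position in these IDs, and 0 of them matched a symbol or synonym of the RefSeq gene table (assembly GRCm38.p6). The genome build named in the file headers is mm9. Probe sequences and positions were not analysed here.

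The RNA came from B cells, affinity purified from spleens; the mice were female and BALB/c, of an age the labels do not give, with 1 one-colour (Cy3) Agilent array per mouse. The 3 arthritic mice had proteoglycan-induced arthritis: they had been immunized with human proteoglycan (PG), a component of cartilage matrix, and were sampled 10 days after injection 3. The 3 non-arthritic mice had received adjuvant 10 days earlier, per their sample descriptions. The treatment protocol of all 6 mice names PG immunization, so what was injected into the non-arthritic mice stays unclear from the labels. If PG went to the arthritic mice alone, arthritis and immunization cannot be told apart. The purity of the B cells was not checked, because no probe of the files is paired with a gene.

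Long intergenic noncoding RNAs (lincRNAs) are transcripts that lie between protein-coding genes and are not translated into protein. Many are made at lower levels and in fewer cell types than messenger RNAs, and some act on chromatin, on transcription of neighbouring genes or on RNA processing. Either strand of a locus can be transcribed, so a probe for each strand is needed where the direction of transcription is not known in advance. B cells make antibodies, and in PG-induced arthritis they take part as sources of antibodies to PG and as cells that present it to T cells.

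Signals are given as log2 of the processed signal minus the 75th percentile of the array, so that 0 is the 75th percentile, and a difference of 1 is 2-fold. Values of a group are listed in the order of mouse 1, 2 and 3. That percentile lay between 108.9 and 187.3, and was highest in non-arthritic mouse 1. This mouse stood apart: over all 27869 probes tested, its signal was 2-fold or more from the mean of the 2 other non-arthritic mice in 22.7%, whereas those 2 were that far from each other in 3.62%. Among the mouselincRNA probes tested the shares lay closer, at 20.6% and 12.1%. All arrays shared 1 slide and 1 scan, but the non-arthritic mice and arthritic mouse 1 lay in its row 1 and arthritic mice 2 and 3 in row 2. The 2 control probes that were well above background on all 6 arrays, of 56 control probe names, were 0.65 and 0.35 higher on the log2 scale in the arthritic mice, with groups that did not overlap. The part of this control signal in the differences below was not tested; values with the array row as a block are given beside the called probes.

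Most mouselincRNA probes were not well above background in these B cells. By the flag of the scanner software, 485 of the 691 (70.2%) passed on no array, against 44.3% of all probes. A further 47 passed on 1 array, 18 on 2, 15 on 3, 15 on 4, 23 on 5 and 88 (12.7%) on all 6 arrays. Among all probes 37.8% passed on all 6. The 141 members that passed on at least 3 arrays, 20.4% of the family, were tested below, against 46.7% of all probes. The 550 others have no test here, and a probe not well above background can still have a transcript at a level the array does not show.

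Detection varied between mice without separating the groups. The number well above background was 118, 148 and 136 across the non-arthritic mice, and 163, 126 and 140 across the arthritic mice. Over all probes the shares in the same order were 45.5%, 46.8%, 46.6%, 47.5%, 42.6% and 46.5%. Of the 47 members seen on a single array, 17 were seen in arthritic mouse 1 and 3 in non-arthritic mouse 1. Of the 23 members seen on 5 arrays, 13 were missing in non-arthritic mouse 1 and between 1 and 4 in each other mouse. So non-arthritic mouse 1 and arthritic mouse 1 bounded the range, and the other 4 mice lay between them.

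**Figure D1:**
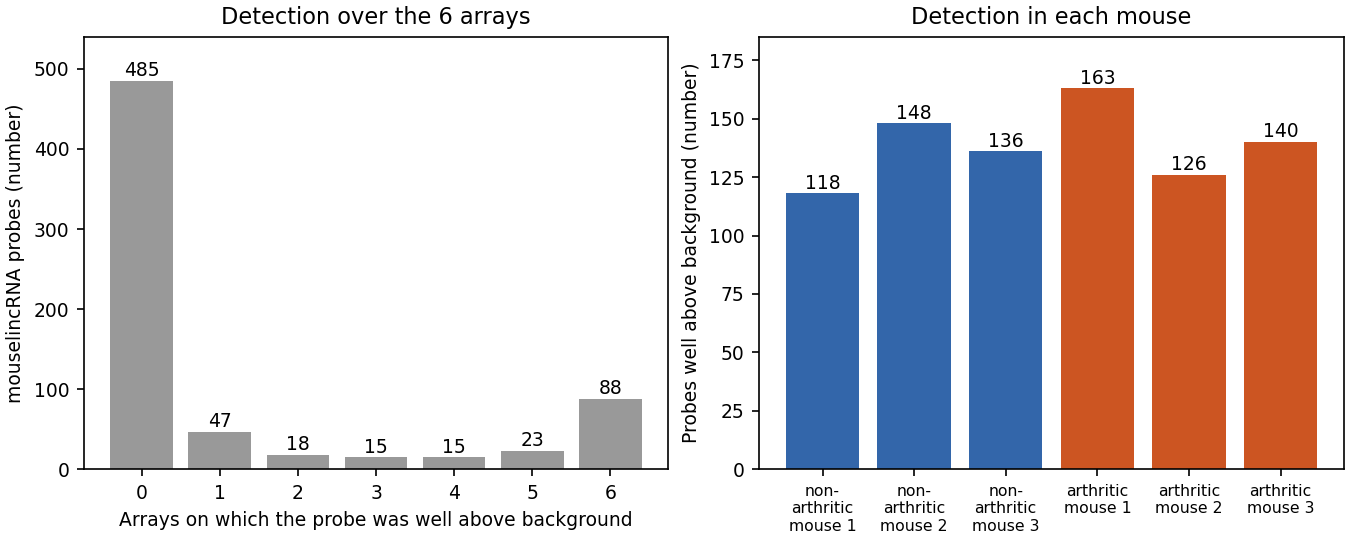
Number of mouselincRNA probes by the number of arrays on which they were well above background (left), and number well above background in each mouse (right, blue non-arthritic, orange arthritic). The 485 probes seen on no array outnumber the 88 seen on all 6, and the counts per mouse run from 118 to 163 with overlapping groups.

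Both strands were detected about equally often, and few numbers had both detected. Of 343 plus probes 67 (19.5%) passed on 3 or more arrays, and of 348 minus probes 74 (21.3%). Among the 340 numbers with both probes, 55 had the plus probe alone detected, 61 the minus probe alone, 12 both and 212 neither. The minus probe was detected at 17.9% of the 67 numbers with a detected plus probe and at 22.3% of the 273 others. These shares are close, so detection of the plus probe told little about that of the minus probe. Where any strand was detected, both were at 9.38% of numbers (12 of 128). The shares counted in the same way were 21.6% (224 of 1039) for probes named MM9LINCRNAEXON and 12.4% (25 of 202) for probes named humanlincRNA, of which 36.5% and 18.7% of probes were detected. These shares are descriptions, because probes are not replicates. By this rule most mouselincRNA numbers (62.4%) were seen on neither strand. Of the 128 others 116 were seen on 1 strand, in a family with 20.4% of its probes detected.

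The members detected in every mouse spanned a wide range of signal. The mean over 6 arrays of the 88 probes ranged from -1.95 to 8.50, with a median of -0.74. It was at or below -1 for 35 of them, above 0 for 29 and above 2 for 11. Levels of different probes are not ranked against each other here, since probes differ in how well they bind. A bright probe, named after its values were seen, is mouselincRNA0161-, at 46202, 46819 and 50410 units of processed signal across the non-arthritic mice and 47577, 47917 and 54793 across the arthritic mice. On the scaled log2 axis it stood at 7.95, 8.72 and 8.85 in the non-arthritic and 8.45, 8.48 and 8.57 in the arthritic mice, so the groups overlapped (log2 difference -0.0088, SE 0.26, limma adjusted p = 0.988). Its partner mouselincRNA0161+ was at -1.86, -1.76 and -2.27 in the non-arthritic mice and -1.49, -1.45 and -2.44 in the arthritic mice, where mouse 3 was not well above background.

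The comparison of arthritic with non-arthritic mice asks which of these noncoding transcripts differ in splenic B cells between diseased and control mice. Of the 141 members tested, 3 were higher and 2 lower in the arthritic mice at a limma adjusted p under 0.05. Together these are 3.55% of members, beside 8.63% of all 27869 probes tested, and for single directions 4.34% of all probes were higher and 4.29% lower. The members higher were mouselincRNA0499+, mouselincRNA0538+ and mouselincRNA0413-, and those lower were mouselincRNA0552+ and mouselincRNA1631-. In bulk RNA of purified cells, fewer cells with a transcript and less of it per cell cannot be told apart. With normexp background correction on the median signals 5 members were higher and 1 was lower (6.93% and 2.74% of all probes), and without non-arthritic mouse 1 the numbers were 17 and 6 (18.1% and 22.3% of all probes). With the array row as a block limma called 0 members (15 at an unadjusted p under 0.05), beside 0.00359% of all probes (11.1% at the unadjusted p); that contrast rests on arthritic mouse 1 against the non-arthritic mice.

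The largest rise was that of mouselincRNA0499+. Its log2 scaled signal was -0.070, 0.44 and 0.13 across the non-arthritic mice, and 2.15, 1.98 and 1.94 across the arthritic mice. Every arthritic mouse lay above every non-arthritic mouse, and all 6 arrays were well above background. The means were 0.17 ± 0.26 (SD, n = 3) and 2.03 ± 0.11 (SD, n = 3), a 3.63-fold rise (log2 difference 1.86, SE 0.18, limma adjusted p = 0.00476). Without non-arthritic mouse 1 it was 3.35-fold (limma adjusted p = 0.00141). Leaving out any other single mouse took the limma adjusted p to between 0.0214 and 0.0461. With the array row as a block the log2 difference was 1.99 and the limma adjusted p 0.126. The minus probe of this number, mouselincRNA0499-, was well above background in non-arthritic mouse 1 (-2.40) and in no other mouse, where it lay between -3.70 and -4.83. At this number the rise was therefore seen on the plus strand, and the other strand gave no measured level in 5 mice.

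The signal of mouselincRNA0538+ also rose. It was 2.52, 3.25 and 3.15 across the non-arthritic mice, and 4.18, 4.23 and 4.13 across the arthritic mice, with no overlap and with the arthritic mice close together. The rise was 2.31-fold (log2 difference 1.21, SE 0.23, limma adjusted p = 0.0274), from 2.97 ± 0.40 to 4.18 ± 0.047 (SD, n = 3 each), and 1.98-fold without non-arthritic mouse 1 (limma adjusted p = 0.00109). Leaving out any other single mouse took the limma adjusted p to between 0.0528 and 0.134, at log2 differences of 1.19 to 1.35. With the array row as a block it was 0.319 (log2 difference 1.21).

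For mouselincRNA0413- the values were -1.06, -0.62 and -0.68 across the non-arthritic mice, and 0.40, 0.41 and 0.36 across the arthritic mice. The groups did not overlap, and the arthritic values spanned less than 0.05. The rise was 2.26-fold (log2 difference 1.18, SE 0.17, limma adjusted p = 0.0134), from -0.79 ± 0.24 to 0.39 ± 0.026 (SD, n = 3 each). With normexp correction the log2 difference was 0.71, still past the threshold (limma adjusted p = 0.0271). Without arthritic mouse 1, 2 or 3 the limma adjusted p was 0.0925, 0.0873 or 0.0820, and with the array row as a block 0.232 (log2 difference 1.19). Its partner mouselincRNA0413+ was not well above background in non-arthritic mouse 1. Its signal there (-3.07) was lower than elsewhere (-2.00 and -2.07 in the other non-arthritic mice, -1.40 to -2.15 in the arthritic mice). The difference of 0.56 for this partner did not pass (SE 0.35, limma adjusted p = 0.387).

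The signal of mouselincRNA0552+ fell, from 0.13, 0.037 and -0.084 across the non-arthritic mice to -2.20, -2.36 and -2.50 across the arthritic mice. In the arthritic group mouse 1 alone was well above background, so the lower level was measured in 1 of 3 mice and the size of the fall is uncertain. The fitted fall was 5.21-fold (log2 difference -2.38, SE 0.16, limma adjusted p = 0.00232), from 0.027 ± 0.11 to -2.35 ± 0.15 (SD, n = 3 each), and 5.03-fold without non-arthritic mouse 1 (limma adjusted p = 5.97e-04). Leaving out any other single mouse took the limma adjusted p to between 0.0154 and 0.0305. With normexp correction the log2 difference was -1.21 (limma adjusted p = 0.00154), and with the array row as a block it was -2.23 (limma adjusted p = 0.0931). The partner mouselincRNA0552- was not well above background in any mouse, with signals of -4.16, -3.46 and -4.26 in the non-arthritic group and -3.08, -2.91 and -3.06 in the arthritic group. Those values have no measured level and no test here.

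The other fall was that of mouselincRNA1631-. Its signal was -0.42, -0.33 and -0.32 across the non-arthritic mice, and -1.96, -2.19 and -2.06 across the arthritic mice, where mouse 2 was not well above background. Both groups were tight and did not overlap. The fitted fall was 3.28-fold (log2 difference -1.71, SE 0.14, limma adjusted p = 0.00357), from -0.36 ± 0.054 to -2.07 ± 0.11 (SD, n = 3 each), and 3.35-fold without non-arthritic mouse 1 (limma adjusted p = 6.30e-04). With normexp correction it was no longer called (log2 difference -0.68, limma adjusted p = 0.0601), nor with the array row as a block (-1.60, limma adjusted p = 0.127). Without any single mouse other than non-arthritic mouse 1, the limma adjusted p lay between 0.0213 and 0.0398.

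**Figure D2:**
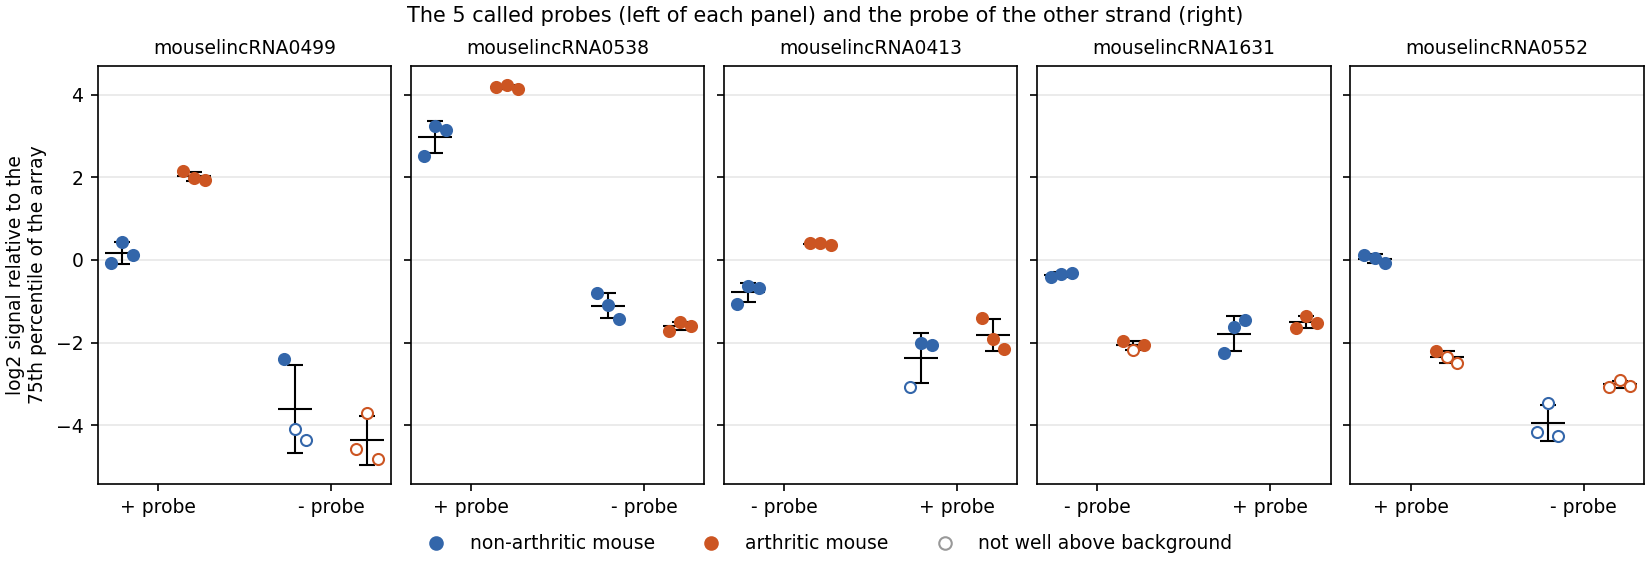
Log2 signal relative to the 75th percentile of the array in each mouse (blue non-arthritic, orange arthritic) for the 5 called probes, at the left of each panel, and the probe of the other strand, at the right. Points are mice, open points were not well above background, and black bars give the mean ± SD of 3 mice. The called probes separate the groups, with rises at 0499, 0538 and 0413 and falls at 1631 and 0552. The probe of the other strand was not tested at 0499 and 0552, and was tested and not called at 0538, 0413 and 1631.

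The groups were also apart in members that were not called. In 28 members tested every arthritic mouse lay above every non-arthritic mouse and in 6 the reverse, together 24.1% of the 141, beside 39.4% of all probes tested (22.2% higher and 17.2% lower). Among the 88 members well above background on all 6 arrays there were 22 of these (25%), 19 higher and 3 lower, beside 41.6% of the 22557 probes well above background on all 6. The 3 lower were mouselincRNA1181+, mouselincRNA0401+ and mouselincRNA0538-, and none of them was called. Of the 19 higher, mouselincRNA1210- and mouselincRNA1235- had the largest differences after the 3 called probes.

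In mouselincRNA1181+ the signal was 5.91 in non-arthritic mouse 1, 4.41 and 4.52 in the other 2 of its group, and 4.07, 3.91 and 4.09 across the arthritic mice. Non-arthritic mouse 1 was far above the rest, and the log2 difference of -0.92 did not pass (SE 0.41, limma adjusted p = 0.232); without that mouse it was -0.44 (limma adjusted p = 0.0156). For mouselincRNA0401+ the values were -1.01, -0.65 and -0.69 across the non-arthritic mice and -1.56, -1.63 and -1.39 across the arthritic mice. Its difference of -0.74 (SE 0.17) lay just outside the threshold (limma adjusted p = 0.0507), and was -0.85 without non-arthritic mouse 1 (limma adjusted p = 0.00338). Non-arthritic mouse 1 was here the lowest of its group, so it narrowed the gap.

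The difference of mouselincRNA1210- rested largely on non-arthritic mouse 1. That mouse was at 0.93, against 2.21 and 2.41 in the other 2 of its group and 2.79, 2.70 and 2.61 across the arthritic mice. The log2 difference was 0.85 (SE 0.39, limma adjusted p = 0.248), and 0.39 without it (limma adjusted p = 0.0332). The same held for mouselincRNA1235-, at -1.35 in non-arthritic mouse 1, -0.031 and 0.14 in mice 2 and 3, and 0.30, 0.51 and 0.51 in the arthritic mice (0.85, SE 0.40, limma adjusted p = 0.259; without that mouse 0.38, limma adjusted p = 0.0437). The smallest differences of the 19 were those of mouselincRNA1235+, the other strand of that number, at -1.93, -1.48 and -1.46 in the non-arthritic and -1.07, -1.38 and -1.40 in the arthritic mice (0.34, SE 0.20, limma adjusted p = 0.356), and of mouselincRNA0158-. The latter was at 1.38, 1.68 and 1.84 in the non-arthritic and 2.00, 2.14 and 1.88 in the arthritic mice, groups that almost touch (0.37, SE 0.18, limma adjusted p = 0.271). The partners mouselincRNA1181-, mouselincRNA0401- and mouselincRNA0158+ were not well above background in any mouse.

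A single member was seen in all mice of 1 group and in none of the other. The signal of mouselincRNA0466+ was well above background at -2.47, -2.33 and -2.18 in the 3 non-arthritic mice, and not well above it at -2.86, -2.68 and -3.18 across the arthritic mice. It entered the test through the 3 non-arthritic arrays alone, so its test adds nothing to this pattern of detection. Against the limit of detection of the arthritic arrays it was at least 1.05-fold lower there, and it was not called (limma adjusted p = 0.122). That bound sets the non-arthritic mean against a floor on each arthritic array, the dimmest signal of any probe that passed there or the signal of the probe itself, whichever was brighter. The dimmest passing signal of arthritic mouse 2 was 32.0 units, at a 75th percentile of 134.4. On the scaled axis this lies above all 3 non-arthritic values of the probe, so the flag of that mouse cannot show a fall. The share of all probes with this pattern is not given here. No member showed the reverse (0 of 691), and mouselincRNA0466- was not well above background in any mouse.

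Over the 141 members tested, 93 (66.0%) had a log2 difference above 0, beside 55.0% of all probes tested, and the median was 0.16 beside 0.056. For the 67 plus probes the median was 0.16, with 44 above 0, and for the 74 minus probes it was 0.16, with 49 above 0. With normexp correction the median of the members was 0.0095, beside 0.016 over all probes. The median SE of the members was 0.32, beside 0.25 for all probes. An unadjusted p under 0.05 was found for 19 members (13.5%), beside 24.6% of all probes. So the family had a median slightly above that of all probes under the 75th percentile scaling and not under normexp. With all 6 arrays a smaller share of it was called than of all probes; without arthritic mouse 1, 2 or 3 the share was 2.13% of members in each fit, above the 1.05%, 1.30% and 1.23% of all probes.

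Non-arthritic mouse 1 moved with many of these differences. It was the lowest of the 6 mice in 60 members (42.6%) and the highest in 6 (4.26%), while over all probes it was the lowest in 48.5% and the highest in 21.7%. In 26 members it was 2-fold or more under the mean of the other non-arthritic mice, and in 3 that far over it. Over all 27869 probes tested the numbers were 4050 and 2263. Of the 20 members with a fitted difference of at least 2-fold, 16 higher and 4 lower, 5 were called; in 10 of the 15 others non-arthritic mouse 1 was the lowest of all mice. An example is mouselincRNA0238-, at -4.62 in that mouse, -1.24 and -1.29 in the other 2 of its group, and -1.28, -1.08 and -1.36 in the arthritic mice. Non-arthritic mouse 1 was not well above background for this probe, so -4.62 is not a measured level. The log2 difference of 1.14 is therefore of uncertain size, and it fell to 0.024 without non-arthritic mouse 1. A second example is mouselincRNA0771-, at -4.18 in that mouse, -1.14 and -1.34 in mice 2 and 3, and -0.89, -0.86 and -0.90 in the arthritic mice. Again non-arthritic mouse 1 was not well above background, so -4.18 is not a measured level either. Here the arthritic mice were above the other non-arthritic mice too. The difference of 1.34 became 0.36 without non-arthritic mouse 1 (limma adjusted p = 0.359 with and 0.0240 without that mouse). The highest difference that was not called, 1.65 for mouselincRNA0361+ (SE 0.83, limma adjusted p = 0.285), came from a probe well above background on 3 arrays. Its non-arthritic values of -4.66, -2.26 and -4.72 and its arthritic values of -1.39, -1.83 and -3.45 overlapped. Non-arthritic mice 1 and 3 and arthritic mouse 3 were not well above background for this probe. So -4.66, -4.72 and -3.45 are not measured levels, and the difference of 1.65 is of uncertain size. These 3 probes were chosen as examples after their values were seen.

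Without non-arthritic mouse 1, 17 members were higher and 6 lower, 16.3% of the 141, beside 40.4% of all probes tested. The 5 called members were among them, each in the same direction, in a fit that shares all 5 of its arrays with the first. The other 18 had small differences: of all 23, 2 rose and 2 fell by 2-fold or more, the members higher had a median fold of 1.47 and the members lower one of 1.69, and the smallest was 1.22. Without that mouse the median difference of the members was 0.065, beside -0.032 over all probes, and 82 of 141 lay above 0 (58.2%, beside 47.1%). The smallest of the 23 was that of mouselincRNA0161-, the bright probe described above (log2 difference -0.29, limma adjusted p = 0.0361), which overlapped between the groups with that mouse included. This fall is one of the scaled signal. Before scaling, the arthritic mice stood at 47577, 47917 and 54793 units. Mice 2 and 3 of the other group, at 46819 and 50410 units, overlapped with them. The 75th percentiles were 136.1, 134.4 and 144.1 on the arthritic arrays, against 110.7 and 108.9. The part of the scaling in this fall was not tested. Others among the 18 kept a difference of like size in both fits. One is mouselincRNA0077+, at 3.70, 3.91 and 3.96 across the non-arthritic mice and 4.45, 4.38 and 4.47 across the arthritic mice. Its groups did not overlap, and its log2 difference was 0.57 with all mice (SE 0.15, limma adjusted p = 0.0683) and 0.49 without non-arthritic mouse 1 (limma adjusted p = 0.00420). Another is mouselincRNA1437+, at 1.98, 2.38 and 2.38 in the non-arthritic and 2.80, 2.81 and 2.78 in the arthritic mice, with 0.55 in the first fit (SE 0.17, limma adjusted p = 0.105) and 0.42 in the second (limma adjusted p = 0.00384). Both were picked after their values were seen.

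**Figure D3:**
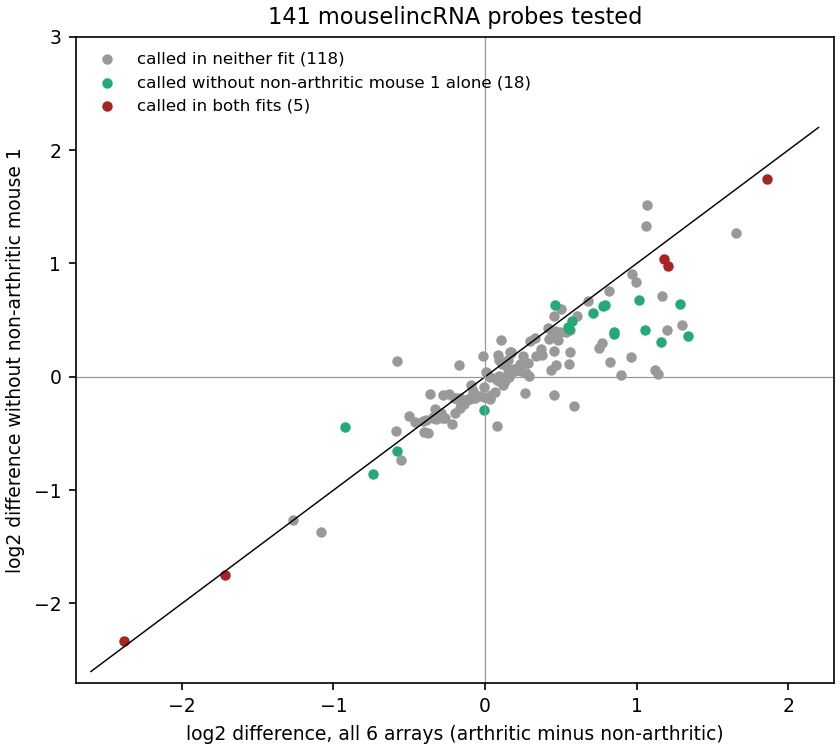
Log2 difference, arthritic minus non-arthritic, of the 141 mouselincRNA probes tested, with all 6 arrays (horizontal) and without non-arthritic mouse 1 (vertical); the line marks equal values. The 5 probes called in both fits lie near the line, while 16 of the 18 called in the second fit alone lie below it.

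At 12 numbers both strands were detected, which allowed the change of the plus strand to be set against that of the minus strand in the same mice. In 8 of the 12 both differences were above 0, and in 4 they had opposite signs. Of all members tested 66.0% had a difference above 0, so the shared signs are not read as a joint change of the strands. The same count over the pairs of all 3 lincRNA families is not given here. For each mouse the log2 signal of the minus probe was subtracted from that of the plus probe, and limma was fitted over all 261 such pairs of the 3 lincRNA families, a comparison chosen after the data were seen. Scaling of an array by a constant leaves these values as they are. Of the 12 pairs 2 passed, beside 8.81% of the 261 pairs: mouselincRNA0538 and mouselincRNA1631.

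At mouselincRNA0538 the plus probe rose, while the minus probe stood at -0.80, -1.10 and -1.42 across the non-arthritic mice and at -1.72, -1.51 and -1.59 across the arthritic mice. The minus probe by itself did not pass (log2 difference -0.50, SE 0.20, limma adjusted p = 0.190). Plus minus minus was 3.32, 4.35 and 4.57 in the non-arthritic and 5.90, 5.74 and 5.72 in the arthritic mice, with no overlap. The strands thus changed by amounts that differed by 1.71 on the log2 scale (SE 0.36, limma adjusted p = 0.0398 over the 261 pairs), and by 1.33 without non-arthritic mouse 1 (limma adjusted p = 0.0153). Leaving out any other single mouse gave 1.65 to 1.95 with limma adjusted p values of 0.0668 to 0.137, and the array row as a block gave 1.82 (limma adjusted p = 0.267).

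At mouselincRNA1631 the minus probe fell, while the plus probe stood at -2.26, -1.63 and -1.46 across the non-arthritic mice and at -1.65, -1.36 and -1.52 across the arthritic mice. The plus probe was well above background in all 6 mice and its groups overlapped (log2 difference 0.27, SE 0.24, limma adjusted p = 0.548). Plus minus minus was -1.85, -1.30 and -1.14 in the non-arthritic and 0.31, 0.82 and 0.54 in the arthritic mice. The minus probe was not well above background in arthritic mouse 2, so the 0.82 of that mouse is not a measured difference. The fitted change was 1.99, of uncertain size (SE 0.28, limma adjusted p = 0.0158 over the 261 pairs). It was 1.78 without non-arthritic mouse 1 (limma adjusted p = 0.0139). With normexp correction it was 0.69 and not called (limma adjusted p = 0.133), with the array row as a block 1.73 (limma adjusted p = 0.206), and without non-arthritic mouse 3 or arthritic mouse 1, 2 or 3 the limma adjusted p lay between 0.0609 and 0.0748.

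In the other 10 pairs the changes of the strands differed by -0.62 to 0.63 on the log2 scale, with limma adjusted p values of 0.257 to 0.979, so a difference between strands was not detectable there with 3 mice per group. In mouselincRNA0413, where the minus probe rose by 1.18 and the 0.56 of the plus probe did not pass, the difference of -0.62 (SE 0.30) had a limma adjusted p of 0.257. Of the 5 called members 3 had a partner that was detected, and it was not called in any of them.

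**Figure D4:**
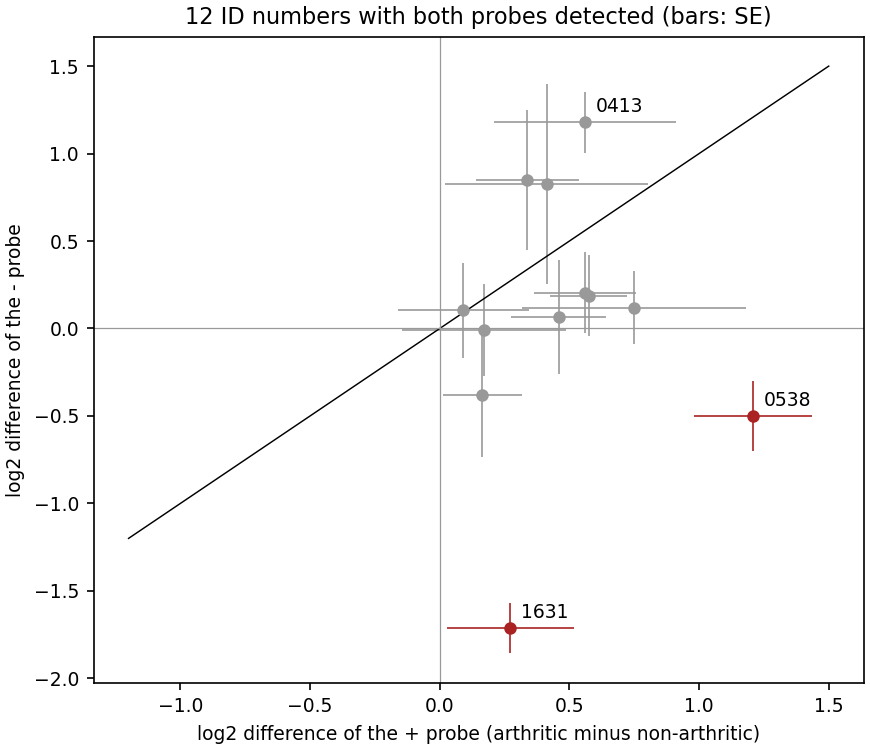
Log2 difference, arthritic minus non-arthritic, of the plus probe (horizontal) and of the minus probe (vertical) at the 12 mouselincRNA numbers with both probes detected; bars are the SE of the fit and the diagonal marks equal change. The 2 numbers in red, 0538 and 1631, lie furthest below the diagonal and passed the test of the difference between strands, and the number of every pair with a called probe is printed.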

How the data were processed

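Titles gave each mouse its group and number, with 1 array per mouse. The members, lists and tests were chosen with earlier results of these data known. The deposited scanner files hold spot intensity as a processed signal, background-subtracted and detrended by Agilent Feature Extraction, per the file headers, version 11.0.1.1 there and 9.1 per the submitters' processing notes. The other columns of the deposited files used here are flags per spot. The authors' value table holds no mouselincRNA probe and was not used here.

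From each array, log2 of the processed signal minus its 75th percentile over non-control probes was taken. Of 62513 spots, 1319 control and 1200 negative spots were left out. Spots of one probe were averaged. Probes that passed the well-above-background flag on 3 or more of the 6 arrays, counted over both groups together, were tested with limma 3.58.1 (lmFit, eBayes; R 4.3.3). P-values are two-sided and were adjusted by Benjamini-Hochberg over all 27869 probes, with a threshold of 0.05. No member spot was saturated or an outlier by its flags (0 on every array). The fit was tested on simulated data with independent normal errors, which held no outlying mouse and no detection floor. Figures were drawn with matplotlib 3.10.9. The number of arrays limits the precision.

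Members were named when called, when among the 5 highest or 5 lowest differences of members seen on all arrays with groups apart, when seen in all mice of 1 group alone, or when sharing a number with one of these. Alternatives were quantile normalization, another set of probes for the percentile, normexp (offset 50) on the median signals, other filters, an intensity trend with robust variance, flagged spots as missing, the array row or mouse number as a block, and each array left out. The fit of strand pairs was added after the data were seen.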

Additional observations from a re-analysis of the deposited data

How the results depend on the processing

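The counts of members called higher and lower, 3 and 2, were 6 and 3 with quantile normalization, 5 and 3 with the percentile over probes detected on all arrays, 5 and 1 with normexp, 2 and 2 with no filter, 3 and 1 with a filter on all 6 arrays, 4 and 2 with an intensity trend and robust variance, and 0 and 0 with the array row as a block. With each array left out the number higher lay between 1 and 17 and the number lower between 2 and 6, with the highest counts without non-arthritic mouse 1. Over all probes the share called, 8.63%, moved with these settings too: it was 12.0% with quantile normalization, 12.3% with the percentile over detected probes, 9.67% with normexp, 2.34% with no filter, 10.6% with the filter on all 6 arrays, 8.97% with the trend, 0.00359% with the array row, and 1.05% to 40.4% with each array left out. Mouse number as a replicate block gave 1 higher and 2 lower, beside 3.27% of all probes. Deviations from the group means correlated at 0.040, 0.295 and 0.236 between mice of the same number. For non-arthritic mouse 2 with arthritic mouse 3 the value was -0.243, and for non-arthritic mouse 3 with arthritic mouse 2 it was -0.235. The other values between mice of unlike number lay between -0.081 and 0.015. The main fit did not take the number as a pairing, and whether it marks one was not tested. The median log2 difference, 0.16, moved to 0.0095 with normexp and ranged from 0.065 to 0.25 with each array left out. The 5 called members kept their direction under every alternative in which they were tested, in fits that reuse the same arrays. The call itself was kept in 14 of 15 alternatives for mouselincRNA0499+, 10 of 15 for mouselincRNA0413- and 7 of 15 for mouselincRNA0538+. It was kept in 13 of 14 for mouselincRNA0552+ and in 12 of 14 for mouselincRNA1631-. These 2 lower ones are not tested under the filter on all 6 arrays. The members detected, 141, were 88 on all 6 arrays, 206 on at least 1, 308 by the weaker flag of a positive and significant signal, and 130 to 138 with each array left out. The numbers with both strands detected, 12, were 7, 30 and 66 under those 3 rules. For all of these, the cause was not tested. Of the arthritic arrays, 1 of 3 was well above background for mouselincRNA0552+ and 2 of 3 for mouselincRNA1631-, so the size of their falls is uncertain.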
